A study of Mus musculus with 6 samples.

Results

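VEGF and angiopoietin signalling was described in bulk lung RNA through 10 genes: the ligands Vegfa, Vegfb, Vegfc and Pgf, their receptors Flt1 and Kdr, the ligands Angpt1 and Angpt2, and the receptors Tek and Tie1. They were chosen by symbol, and all 10 were found among the 55335 genes of the count table. Lungs came from mouse embryos at embryonic day 18 in 2 groups of 3 libraries, which the titles mark as biological replicates. Gata4 CKO embryos were Prx1Cre; Gata4 F/D, with 1 floxed and 1 deleted allele of Gata4, a zinc-finger transcription factor of heart and mesoderm. Controls were Prx1Cre; Gata4 F/+, with 1 floxed and 1 intact allele, so both groups carried the Cre transgene and a floxed allele. Per the submitters' design text, the transgene deletes Gata4 in the lateral plate mesoderm, and Gata4 CKO embryos have diaphragm defects and small lungs in which fewer cells divide. The comparison addresses what gene expression accompanies the small lungs. Whole lungs were used, so cells outside the lineage of the transgene were included.

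VEGF-A, made in the late fetal lung largely by alveolar type 1 cells, signals through the endothelial tyrosine kinase receptor encoded by Kdr. Flt1 encodes a receptor that binds VEGF-A tightly with weak kinase activity and, in a soluble form, traps it; VEGF-B and placental growth factor bind this receptor and not the Kdr product. Angiopoietin 1, released by pericytes and other mesenchymal cells, activates the endothelial receptor encoded by Tek, whereas angiopoietin 2, made by endothelium, acts as a weaker and often opposing ligand, and the Tie1 product is a co-receptor without a high-affinity angiopoietin of its own. The pathways build and stabilise the capillary bed of the lung.

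The bases before the annotated starts of the 4 receptor genes are shown because the receptors split into pairs. Kdr and Flt1 were lower in all libraries labelled Gata4 CKO than in every control, and Tek and Tie1 were not. For Tie1 this rested on Gata4 CKO 1 alone, at 344 CPM. In Gata4 CKO 2 and 3 it stood at 208 and 247 CPM, below every control. Each run is the 250 bases before the start in RefSeq (GRCm38.p6), 5′ to 3′ on the gene's strand. The core of ETS factor motifs, GGAA or its reverse complement TTCC, is in capitals. By the gene positions given below, from GENCODE mouse release 21, Tie1 starts at 118490061 on the minus strand. Most of its window lies inside the gene by that annotation.
Kdr (chr5:75978456-75978705, minus strand): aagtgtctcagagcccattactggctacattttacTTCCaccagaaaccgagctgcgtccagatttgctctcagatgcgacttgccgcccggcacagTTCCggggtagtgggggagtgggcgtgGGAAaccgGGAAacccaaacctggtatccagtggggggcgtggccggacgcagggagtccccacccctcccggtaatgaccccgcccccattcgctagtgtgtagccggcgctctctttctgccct
Flt1 (chr5:147726012-147726261, minus strand): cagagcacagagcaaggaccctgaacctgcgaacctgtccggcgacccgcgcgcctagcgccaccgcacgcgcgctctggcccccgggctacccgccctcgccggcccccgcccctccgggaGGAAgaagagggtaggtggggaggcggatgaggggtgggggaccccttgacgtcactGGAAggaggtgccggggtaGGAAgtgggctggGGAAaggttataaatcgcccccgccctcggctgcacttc
Tek (chr4:94739039-94739288, plus strand): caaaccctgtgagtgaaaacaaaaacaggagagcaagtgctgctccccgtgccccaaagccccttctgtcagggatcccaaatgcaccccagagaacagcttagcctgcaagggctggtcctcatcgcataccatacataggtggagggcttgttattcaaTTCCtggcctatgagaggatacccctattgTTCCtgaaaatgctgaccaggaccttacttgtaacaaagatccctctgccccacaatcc
Tie1 (chr4:118489850-118490099, minus strand): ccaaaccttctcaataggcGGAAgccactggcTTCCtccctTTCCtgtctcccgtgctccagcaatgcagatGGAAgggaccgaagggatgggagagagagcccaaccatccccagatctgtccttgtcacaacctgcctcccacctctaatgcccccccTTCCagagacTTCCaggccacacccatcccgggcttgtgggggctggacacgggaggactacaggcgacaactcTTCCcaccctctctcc
ETS factors are known regulators of endothelial genes. The windows of Kdr and Flt1 held 4 cores each, that of Tek held 2 and that of Tie1 held 7. Among 32851 windows of the same length, 93.4% held at least 1 core, 76.8% at least 2, 33.4% at least 4 and 3.82% at least 7. The letters GATA or TATC occurred 1 time each in the windows of Kdr and Tek and not in those of Flt1 and Tie1, and 53.6% of all windows held them. Windows for 8 of the 10 genes were matched.

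Total counts ranged from 15156415 to 30848948 per library. Gata4 had 117, 76 and 97 reads in Gata4 CKO 1, 2 and 3, against 84, 63 and 90 reads in controls 1, 2 and 3 (log2 fold change 0.49 ± 0.28, SE, edgeR adjusted p = 0.671). The targeted gene was therefore not lower in the libraries labelled Gata4 CKO. Gene-wide counts may hold reads from exons that the deletion spares and so are a weak check. Gata4 CKO is used here as the label of these libraries, and each direction below rests on the labels. Transcript length and GC content accounted for 33.5%, 11.7% and 6.32% of the variance of log2 deviations in Gata4 CKO 1, 2 and 3. In controls 1, 2 and 3 they accounted for 2.61%, 2.74% and 2.99%. Gata4 CKO 1 stood furthest apart. All libraries labelled Gata4 CKO lay above every control, so the size of this trend runs with the group. The number in the authors' column labels, to which the labels give no meaning, was 4229 in Gata4 CKO 1 and in controls 1 and 2, 4723 in Gata4 CKO 2 and 3, and 4503 in control 3. Values are CPM, read counts of a gene scaled to library size with TMM factors. A gene was called where the Benjamini-Hochberg adjusted p of edgeR's quasi-likelihood test over 17075 genes was under 0.05. With edgeR 0.0% of tested genes were called (0 genes, with 1482, or 8.68%, at an unadjusted p under 0.05). DESeq2, run without edgeR's filter on low counts, called 110 of 29780 genes (0.369%).

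Both VEGF receptor genes were lower in every library labelled Gata4 CKO than in every control, by roughly equal amounts, although neither passed the test over all genes. Kdr (ENSMUSG00000062960, chromosome 5, 75932827 to 75978458, minus strand, GRCm38) encodes the main signalling receptor of VEGF-A in endothelium. It stood at 327, 342 and 373 CPM in Gata4 CKO 1, 2 and 3, against 483, 525 and 487 CPM in controls 1, 2 and 3. The groups were well apart, with a gap between the highest Gata4 CKO and the lowest control library that exceeded the whole range of either group. Mean levels were 347.3 ± 23.7 CPM in Gata4 CKO and 498.5 ± 23.4 CPM in controls (SD, n = 3 each). On the log2 scale the fold change was -0.52 ± 0.15 (SE, 95% interval -0.86 to -0.18, edgeR adjusted p = 0.529), a difference of -30.3%.

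Flt1 (ENSMUSG00000029648, chromosome 5, 147561604 to 147726011, minus strand) had 69.1, 81.4 and 82.9 CPM in Gata4 CKO 1, 2 and 3, against 97.3, 109.7 and 113.3 CPM in controls 1, 2 and 3. Again no library labelled Gata4 CKO reached the lowest control. The means were 77.8 ± 7.59 CPM in Gata4 CKO and 106.8 ± 8.42 CPM in controls (SD, n = 3 each), with a log2 fold change of -0.46 ± 0.14 (SE, 95% interval -0.79 to -0.12, edgeR adjusted p = 0.529). The counts are per gene and do not separate the soluble form from the membrane receptor. By unadjusted edgeR p, Kdr ranked 230 and Flt1 425 of the 17075 genes.

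Of the 10 genes, 3 had groups that did not overlap, 2 of them lower (Kdr and Flt1) and 1 higher (Vegfb). Among all tested genes 16.8% did not overlap, 9.08% lower and 7.69% higher. The median log2 fold change was -0.08 over the 10 genes and 0.01 over all tested genes. In bulk tissue fewer cells of a type and less RNA per cell cannot be told apart. The summed level of 14 pan-endothelial genes, which mark all vessel endothelium, was 2409 to 3068 CPM in Gata4 CKO and 2674 to 3101 CPM in controls, and the ranges overlapped. None of the 14 was at 0. The summed level of 7 general capillary genes did not overlap, at 883 to 980 CPM in Gata4 CKO and 1158 to 1259 CPM in controls. Most of that gap lay in Cd93, a surface receptor of endothelium, at a mean of 394.4 CPM in Gata4 CKO and 600.1 CPM in controls. Of the 7 genes, 5 had overlapping groups, Plvap stood at a log2 fold change of 0.03 and Gpihbp1 at 0.63, so the sum does not stand for the whole list. The summed level of 7 aerocyte genes overlapped, at 659 to 723 CPM in Gata4 CKO and 686 to 942 CPM in controls, and that of 4 venous genes did not, at 294 to 357 CPM in Gata4 CKO and 372 to 403 CPM in controls. All 4 venous genes had negative log2 fold changes, but only 1, Nr2f2, had groups that did not overlap. None of these markers was at 0, and their part in the receptor values was not tested.

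**Figure D1:**
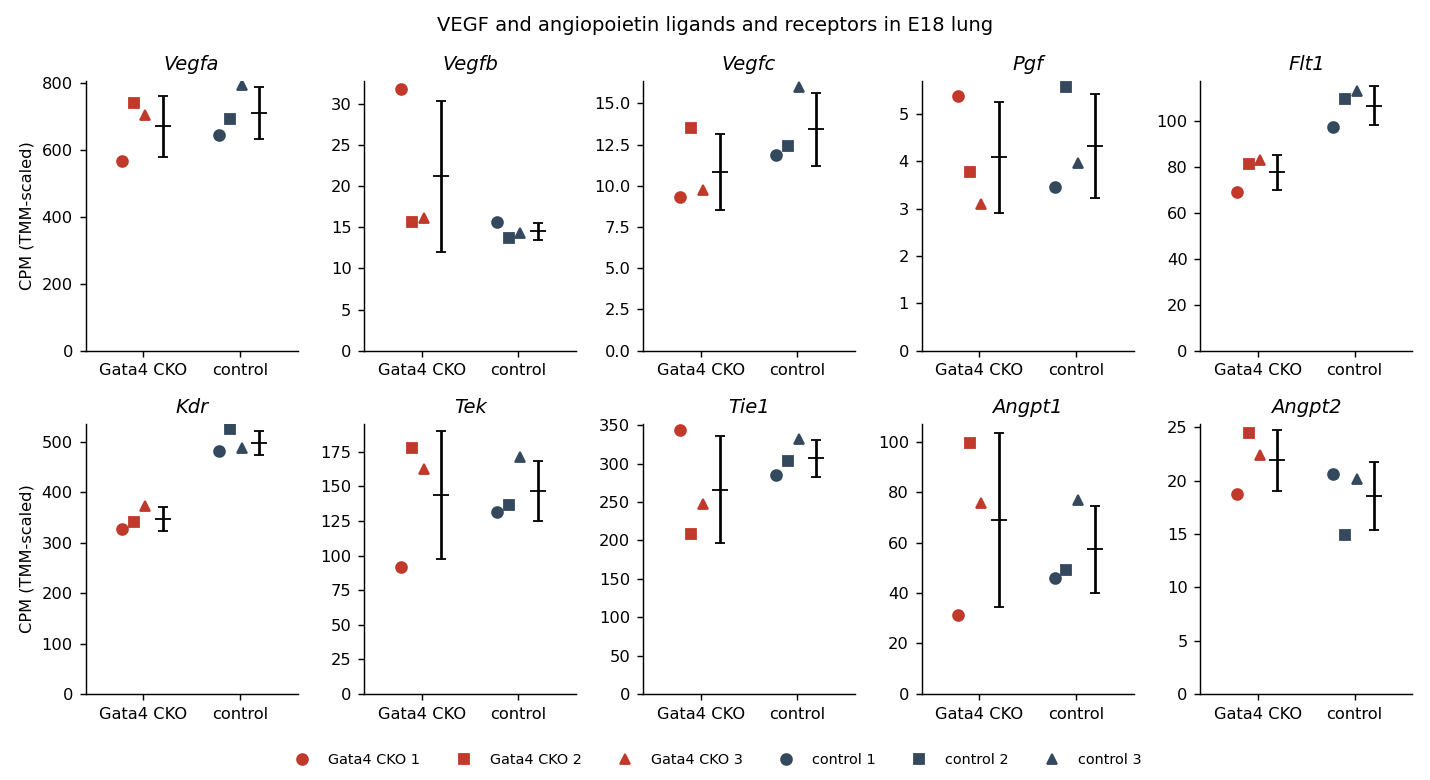
CPM of the 10 genes (y axes, linear from 0) in 3 libraries labelled Gata4 CKO (red, left) and 3 control libraries (dark, right), 1 symbol per library; bars give mean ± SD. Kdr and Flt1 are the genes whose libraries labelled Gata4 CKO all lie below every control, and Vegfb the gene whose libraries labelled Gata4 CKO all lie above, with Gata4 CKO 1 at 31.8 CPM far from the other 2.

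Among the VEGF ligands, the most abundant one did not separate the groups. Vegfa (ENSMUSG00000023951, chromosome 17, 46016993 to 46032369, minus strand) had 567, 740 and 706 CPM in Gata4 CKO 1, 2 and 3, against 644, 694 and 795 CPM in controls 1, 2 and 3. The groups overlapped, with the lowest value in Gata4 CKO 1 and the highest in control 3. The log2 fold change was -0.08 ± 0.18 (SE, 95% interval -0.50 to 0.33, edgeR adjusted p = 0.914), so a difference of the size seen for Kdr lay just outside that interval. The sum of 7 alveolar type 1 genes, whose cells are a main source of VEGF-A, also overlapped, at 4894 to 5651 CPM in Gata4 CKO and 5245 to 6102 CPM in controls.

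Vegfb (ENSMUSG00000024962, chromosome 19, 6982473 to 6987651, minus strand), a ligand of the Flt1 receptor, had 31.8, 15.7 and 16.1 CPM in Gata4 CKO 1, 2 and 3, against 15.6, 13.6 and 14.2 CPM in controls 1, 2 and 3. The groups did not overlap, but Gata4 CKO 2 barely exceeded the highest control, and Gata4 CKO 1 stood far above all other libraries. The log2 fold change was 0.55 ± 0.29 (SE, 95% interval -0.11 to 1.21, edgeR adjusted p = 0.636), and it was 0.14 without Gata4 CKO 1.

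Vegfc (ENSMUSG00000031520, chromosome 8, 54077606 to 54187096, plus strand), the growth factor of lymphatic vessels, had 9.33, 13.5 and 9.74 CPM in Gata4 CKO 1, 2 and 3, against 11.9, 12.4 and 16.0 CPM in controls 1, 2 and 3. Gata4 CKO 2 lay among the controls and the other 2 libraries labelled Gata4 CKO below them (log2 fold change -0.31 ± 0.22, SE, edgeR adjusted p = 0.717). Pgf (ENSMUSG00000004791, chromosome 12, 85166635 to 85177790, minus strand), which encodes placental growth factor, was the scarcest of the 10 genes in CPM. It had 5.37, 3.77 and 3.10 CPM in Gata4 CKO 1, 2 and 3, against 3.45, 5.57 and 3.96 CPM in controls 1, 2 and 3, with overlapping groups (log2 fold change -0.08 ± 0.30, SE, edgeR adjusted p = 0.951). It rested on 57 to 121 reads per library.

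The Tie receptors and angiopoietins did not separate the groups, and 3 of these 4 genes varied widely within Gata4 CKO. Tek (ENSMUSG00000006386, chromosome 4, 94739289 to 94874976, plus strand), the angiopoietin receptor, had 91.4, 178 and 163 CPM in Gata4 CKO 1, 2 and 3, against 132, 137 and 171 CPM in controls 1, 2 and 3. The lowest and the highest library were both Gata4 CKO, and the log2 fold change was -0.03 ± 0.26 (SE, 95% interval -0.62 to 0.57, edgeR adjusted p = 0.980). Tie1 (ENSMUSG00000033191, chromosome 4, 118471191 to 118490061, minus strand), its co-receptor, had 344, 208 and 247 CPM in Gata4 CKO 1, 2 and 3, against 285, 304 and 332 CPM in controls 1, 2 and 3. Here Gata4 CKO 1 was the highest of the 6 libraries and the other 2 libraries labelled Gata4 CKO the lowest (log2 fold change -0.20 ± 0.21, SE, 95% interval -0.69 to 0.28, edgeR adjusted p = 0.807).

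Angpt1 (ENSMUSG00000022309, chromosome 15, 42424723 to 42676977, minus strand), the activating ligand of Tek, had 31.4, 99.3 and 75.8 CPM in Gata4 CKO 1, 2 and 3, against 45.9, 49.0 and 76.9 CPM in controls 1, 2 and 3. Gata4 CKO 1 was the lowest library and Gata4 CKO 2 the highest, and control 3 lay with Gata4 CKO 3. The log2 fold change was 0.26 ± 0.40 (SE, 95% interval -0.65 to 1.18, edgeR adjusted p = 0.872). The sum of 8 pericyte genes, a source of angiopoietin 1, was 974 to 1108 CPM in Gata4 CKO and 1040 to 1127 CPM in controls. Its largest term was Postn, at a mean of 494.2 CPM in Gata4 CKO and 465.0 CPM in controls. Of the 8 genes, 4 had positive and 4 negative log2 fold changes. Groups did not overlap for 2 of them, Rgs5 at -1.09 and Notch3 at -0.39, so the sum does not stand for the whole list. Angpt2 (ENSMUSG00000031465, chromosome 8, 18690263 to 18741562, minus strand), the context-dependent antagonist, had 18.8, 24.5 and 22.5 CPM in Gata4 CKO 1, 2 and 3, against 20.6, 14.9 and 20.2 CPM in controls 1, 2 and 3. Its groups overlapped through Gata4 CKO 1 (log2 fold change 0.24 ± 0.19, SE, 95% interval -0.20 to 0.67, edgeR adjusted p = 0.753). Angpt2 overlaps Mcph1 on the opposite strand, and Angpt1 overlaps Gm17473 on the opposite strand. The strand setting of the counting is not given in the sources used here, so reads of these pairs cannot be told apart; Mcph1 had 133 to 366 reads per library and Gm17473 at most 12.

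Per exon length, in TPM (reads per base of the union of annotated exons, scaled to a fixed total per library), Vegfa came first in all 6 libraries, then Tie1 and then Kdr. Vegfa averaged 522 ± 128.4 TPM in Gata4 CKO and 583 ± 55.1 TPM in controls (SD, n = 3 each). Tie1 averaged 175 ± 25.3 TPM in Gata4 CKO and 219.3 ± 13.9 TPM in controls, and Kdr 127.4 ± 23.1 TPM in Gata4 CKO and 194.1 ± 9.66 TPM in controls. The order of Tie1 and Kdr depended on the length used: per base of the longest transcript, a length chosen after the data were seen, Kdr exceeded Tie1 in 5 of 6 libraries, all but Gata4 CKO 1. On that scale Kdr averaged 58.6 ± 3.99 CPM per kilobase in Gata4 CKO and 84.1 ± 3.95 in controls, and Tie1 62.9 ± 16.5 in Gata4 CKO and 72.5 ± 5.58 in controls (SD, n = 3 each). Tek followed at 103.3 ± 42.2 TPM in Gata4 CKO and 109.3 ± 14.6 TPM in controls, and came next in order except in Gata4 CKO 1, where Vegfb stood above it. Angpt1, Vegfb, Flt1, Angpt2 and Vegfc lay between 10.8 and 66.7 TPM, changed places between libraries and could not be ranked beyond their spread. Pgf was last in every library, at 4.53 ± 0.71 TPM in Gata4 CKO and 5.24 ± 1.34 TPM in controls. The level of Flt1 in these gene-wide units is lowered by its exon union of 13504 bases, which covers short and long transcripts.

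Ratios within a library are free of library scaling. They are not free of the trend with length and GC content, which was largest in Gata4 CKO 1 and was not removed here. The reads of Flt1 per read of Kdr were 0.211, 0.238 and 0.222 in Gata4 CKO 1, 2 and 3, against 0.201, 0.209 and 0.232 in controls 1, 2 and 3, a narrow range in which the groups overlapped. The log2 ratio of Flt1 to Kdr differed by 0.06 between the groups (Gata4 CKO minus control, two-sided exact permutation p = 0.4, where 0.1 is the smallest p that 3 against 3 libraries allow). The balance of the angiopoietins ran from 1.67 reads of Angpt1 per read of Angpt2 in Gata4 CKO 1 to 4.05 in Gata4 CKO 2, with 3.38 in Gata4 CKO 3, against 2.23, 3.28 and 3.80 in controls 1, 2 and 3. All control values thus lay within the range of the libraries labelled Gata4 CKO (difference of the log2 ratio of Angpt2 to Angpt1 0.09, exact permutation p = 0.9), and the difference ran from -0.29 without Gata4 CKO 1 to 0.35 without Gata4 CKO 2. Tek had 0.266, 0.854 and 0.659 reads per read of Tie1 in Gata4 CKO 1, 2 and 3, against 0.463, 0.449 and 0.517 in controls 1, 2 and 3. The controls were close together and the libraries labelled Gata4 CKO fell on both sides of them (difference of the log2 ratio 0.16, exact permutation p = 0.9). That difference was 0.66 without Gata4 CKO 1 and -0.18 without Gata4 CKO 2.

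Set against pan-endothelial genes, Kdr and Flt1 were lower in every library labelled Gata4 CKO than in every control. The mean log2 CPM of the 14 pan-endothelial genes was 7.34, 6.85 and 7.06 in Gata4 CKO 1, 2 and 3. In controls 1, 2 and 3 it was 7.05, 7.18 and 7.24 (difference -0.07, exact permutation p = 0.7). It was highest in Gata4 CKO 1, which lowers every relative value of that library. The trend with length and GC content, largest in Gata4 CKO 1, was not removed here. Kdr stood above that mean by 1.02, 1.57 and 1.49 in Gata4 CKO 1, 2 and 3, against 1.87, 1.86 and 1.69 in controls 1, 2 and 3. The difference was -0.45 (exact permutation p = 0.1, the smallest possible, Benjamini-Hochberg value 0.433 over 13 such comparisons), and -0.28 without Gata4 CKO 1. Flt1 relative to the same genes was at -1.22, -0.50 and -0.68 in Gata4 CKO 1, 2 and 3, against -0.44, -0.40 and -0.41 in controls 1, 2 and 3. That difference was -0.38 (exact permutation p = 0.1) and -0.17 without Gata4 CKO 1, whose value lay far below the rest. Vegfb was higher in every library labelled Gata4 CKO on this scale too (difference 0.54, exact permutation p = 0.1, and 0.34 without Gata4 CKO 1), and the other 7 genes overlapped.

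**Figure D2:**
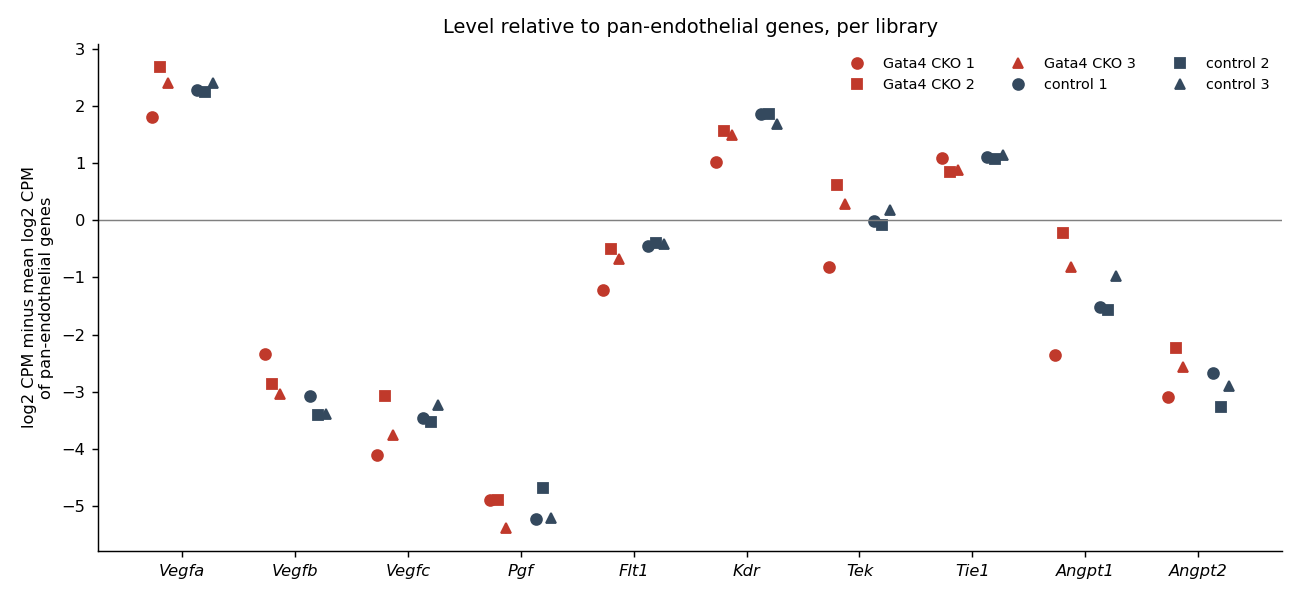
Log2 CPM of each gene minus the mean log2 CPM of 14 pan-endothelial genes (y axis), for 3 libraries labelled Gata4 CKO (red, left of each pair) and 3 control libraries (dark, right). For Kdr the libraries labelled Gata4 CKO reach at most 1.57 and the controls at least 1.69; for Tek and Angpt1 the libraries labelled Gata4 CKO spread around the controls.

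Gata4 CKO 1 differed from the other 2 libraries labelled Gata4 CKO upward for some genes and downward for others. These differences were set beside the base composition and length of the transcripts. Its log2 CPM minus the mean of Gata4 CKO 2 and 3 was 0.99 for Vegfb, whose longest transcript is 62.6% G or C, 0.60 for Tie1 (57.6%) and 0.64 for Pgf (56.3%). It was -1.46 for Angpt1, the gene of lowest GC content at 39.3%, and -0.89 for Tek (47.1%). Kdr and Flt1, at 49.4% and 50.5%, lay close to the middle at -0.13 and -0.25. Their longest transcripts, of 5924 and 6895 bases, were the longest of the 10 genes. Across the 10 genes, which share the libraries and are not independent replicates, Pearson's r between GC content and this difference was 0.94, and across all 17063 tested genes with a transcript sequence it was 0.47. Between log2 length of the longest transcript and this difference, r was -0.56 across the 10 genes and -0.31 across the 17063. With each library's trend with length and GC content removed, log2 fold changes were -0.37 for Kdr, -0.30 for Flt1 and 0.39 for Vegfb (edgeR adjusted p = 0.335, 0.336 and 0.364). Before its removal they were -0.52, -0.46 and 0.55.

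**Figure D3:**
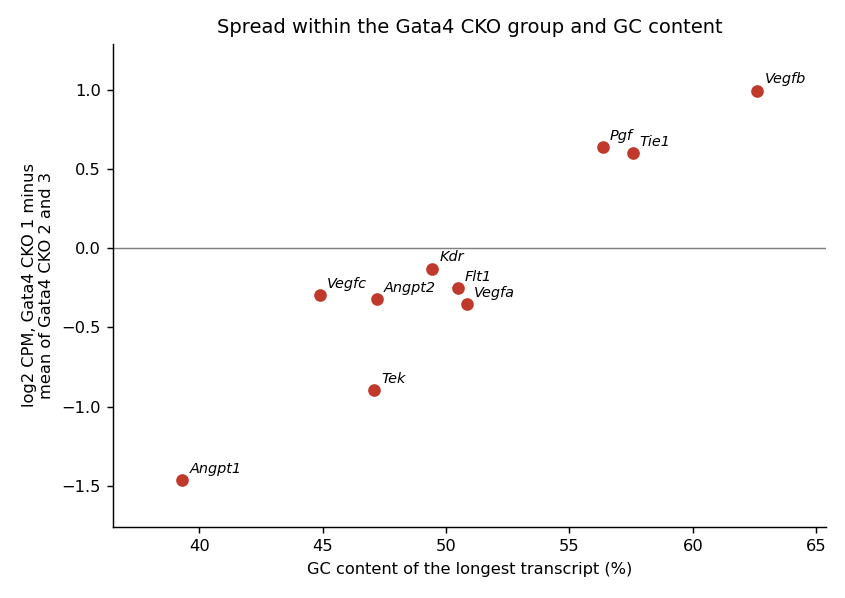
GC content of each gene's longest transcript (x axis, percent) against its log2 CPM in Gata4 CKO 1 minus the mean of Gata4 CKO 2 and 3 (y axis), 1 point per gene. Points run from Angpt1 (39.3%, -1.46) to Vegfb (62.6%, 0.99), with Kdr and Flt1 near 0.

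The direction of Kdr and Flt1 was the same in all 15 other settings tried, with log2 fold changes from -0.63 to -0.37 for Kdr and from -0.58 to -0.30 for Flt1. The groups did not overlap for either gene, so settings that refit these libraries or leave some out could hardly turn the sign. The shared sign is therefore a description and not a check. Without Gata4 CKO 1, where edgeR called 0.656% of genes, Kdr had -0.48 and Flt1 -0.38 (adjusted p = 0.0632 and 0.0813). With control 3 left out as well, edgeR called 25.5% of genes and both receptors passed, Kdr at -0.50 (adjusted p = 0.00264) and Flt1 at -0.33 (adjusted p = 0.0155). In that setting Tie1 was lower at -0.37 (adjusted p = 0.0147), while Tek at 0.34 (adjusted p = 0.00783) and Angpt1 at 0.88 (adjusted p = 0.00144) were higher. Limma-voom with quality weights, which called 25.6% of genes, gave Kdr -0.45 and Flt1 -0.32 (adjusted p = 0.00419 and 0.0165). The 4 libraries left without Gata4 CKO 1 and control 3 share no column-label number between the groups, so number and group cannot be told apart there. With the number as a term the comparison rests on Gata4 CKO 1 against controls 1 and 2, and edgeR called 42.8% of genes. Gata4 CKO 1 is the only library labelled Gata4 CKO in that comparison and has no replicate there. The p-values behind that share therefore hold no replication of Gata4 CKO 1, and log2 fold changes alone are given. Kdr then had -0.63 and Flt1 -0.58. Tek at -0.55 and Angpt1 at -0.59 had signs opposite to those without Gata4 CKO 1, and Vegfb stood at 1.12. Tie1 then had 0.22. Both sets of libraries share controls 1 and 2, so they are not independent of each other.

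**Figure D4:**
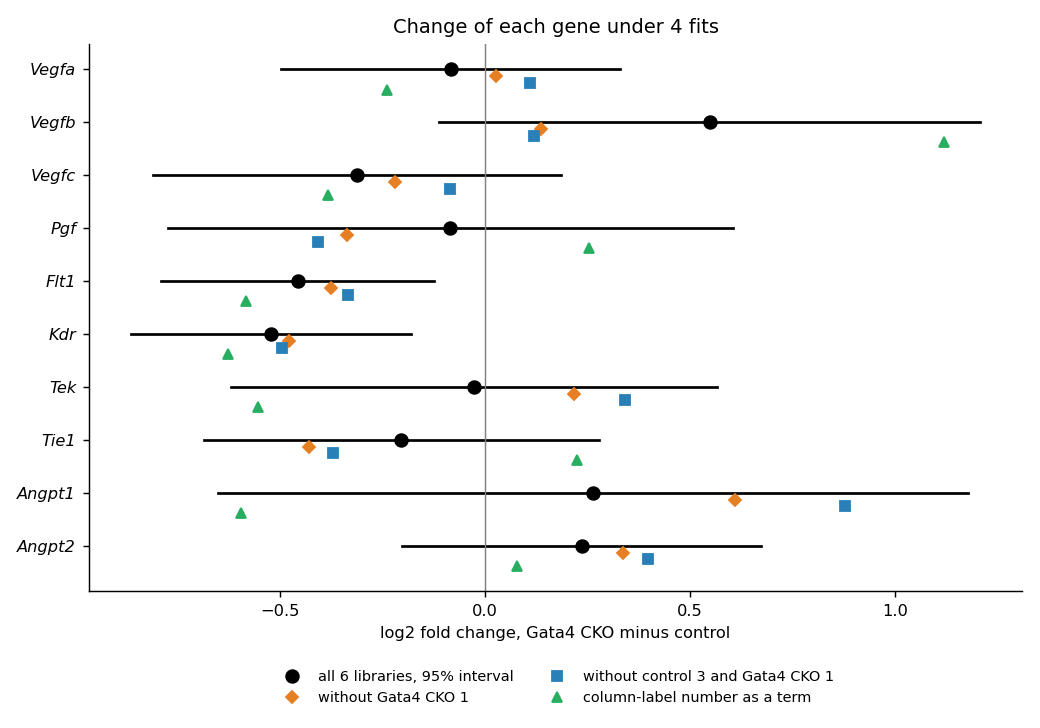
Log2 fold change of each gene, Gata4 CKO minus control (x axis), over all 6 libraries with the 95% interval (black), without Gata4 CKO 1 (orange), without control 3 and Gata4 CKO 1 (blue) and with the column-label number as a term (green). All 4 symbols lie below 0 for Kdr, Flt1 and Vegfc and above 0 for Vegfb and Angpt2, and they lie on both sides of 0 for Tek, Tie1, Angpt1, Vegfa and Pgf.

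Of 14 further ligands, receptors and signalling partners, 12 were tested, 0 passed in edgeR, and 9 had negative log2 fold changes, with a median of -0.24. The libraries labelled Gata4 CKO lay below all controls for 6 of the 12 and above all of them for 0, where 9.08% and 7.69% of tested genes did so. The list was chosen with earlier results of these data known, so these shares are a description only. Svep1, an extracellular matrix protein that binds the Tie1 product, had 127, 106 and 116 CPM in Gata4 CKO 1, 2 and 3, against 185, 196 and 185 CPM in controls 1, 2 and 3. The groups were far apart (log2 fold change -0.70 ± 0.14, SE, edgeR adjusted p = 0.529), and DESeq2 gave an adjusted p of 0.0070. Vegfd, a second lymphatic growth factor, had 84.3, 76.5 and 81.3 CPM in Gata4 CKO 1, 2 and 3, against 97.3, 98.7 and 132 CPM in controls 1, 2 and 3 (log2 fold change -0.44 ± 0.16, SE, edgeR adjusted p = 0.543). Foxo1, a transcription factor that angiopoietin 1 signalling holds inactive, had 40.0, 45.6 and 47.8 CPM in Gata4 CKO 1, 2 and 3, against 54.7, 57.1 and 62.3 CPM in controls 1, 2 and 3 (log2 fold change -0.38 ± 0.14, SE, edgeR adjusted p = 0.533). The third VEGF receptor gene, Flt4, had -0.34, the co-receptors Nrp1 and Nrp2 had -0.17 and -0.22, and Ptprb, a phosphatase that acts on Tek, had 0.12, all with overlapping groups.

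Most genes that VEGF is known to induce in endothelium had negative log2 fold changes, with Esm1 on the other side. Of the 14, 0 passed in edgeR and 11 were negative, with a median of -0.27. The libraries labelled Gata4 CKO lay below all controls for 6 of the 14 and above all of them for 1, where 9.08% and 7.69% of tested genes did so. This list too was chosen with earlier results of these data known, so the shares are a description only. The summed level of the 14 did not overlap, at 699 to 853 CPM in Gata4 CKO and 995 to 1047 CPM in controls. The largest mean differences in that sum were in Adamts1, at 232.3 CPM in Gata4 CKO and 319.7 CPM in controls, and Nid2, at 106.5 and 180.0 CPM. Groups did not overlap for only 7 of the 14, so the sum does not stand for the whole list. Esm1, a tip cell proteoglycan and a common readout of VEGF-A signalling, was the gene above all controls. It had 5.72, 10.9 and 6.54 CPM in Gata4 CKO 1, 2 and 3, against 3.45, 3.79 and 2.85 CPM in controls 1, 2 and 3 (log2 fold change 1.19 ± 0.30, SE, edgeR adjusted p = 0.529, DESeq2 adjusted p = 0.0436). Nid2, a basement membrane protein, was lower, at 120, 85.2 and 114 CPM in Gata4 CKO 1, 2 and 3, against 185, 208 and 147 CPM in controls 1, 2 and 3 (log2 fold change -0.76 ± 0.20, SE, edgeR adjusted p = 0.529). The early response factor Egr3 had a log2 fold change of -2.80 with at most 4.37 CPM in any library (edgeR adjusted p = 0.529, DESeq2 adjusted p = 0.00075). Dll4, a Notch ligand of tip cells, stood at -0.01 and Nos3, the endothelial nitric oxide synthase, at -0.49. Of 9 oxygen-sensing genes upstream of Vegfa, 0 passed in edgeR, with 4 positive values, a median of -0.05 and 1 gene below all controls, Hif3a, a member of the hypoxia factor family, at -0.28. Hif1a, the hypoxia factor, had -0.31 and Egln3, a prolyl hydroxylase that the pathway induces, had 0.38.

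**Figure D5:**
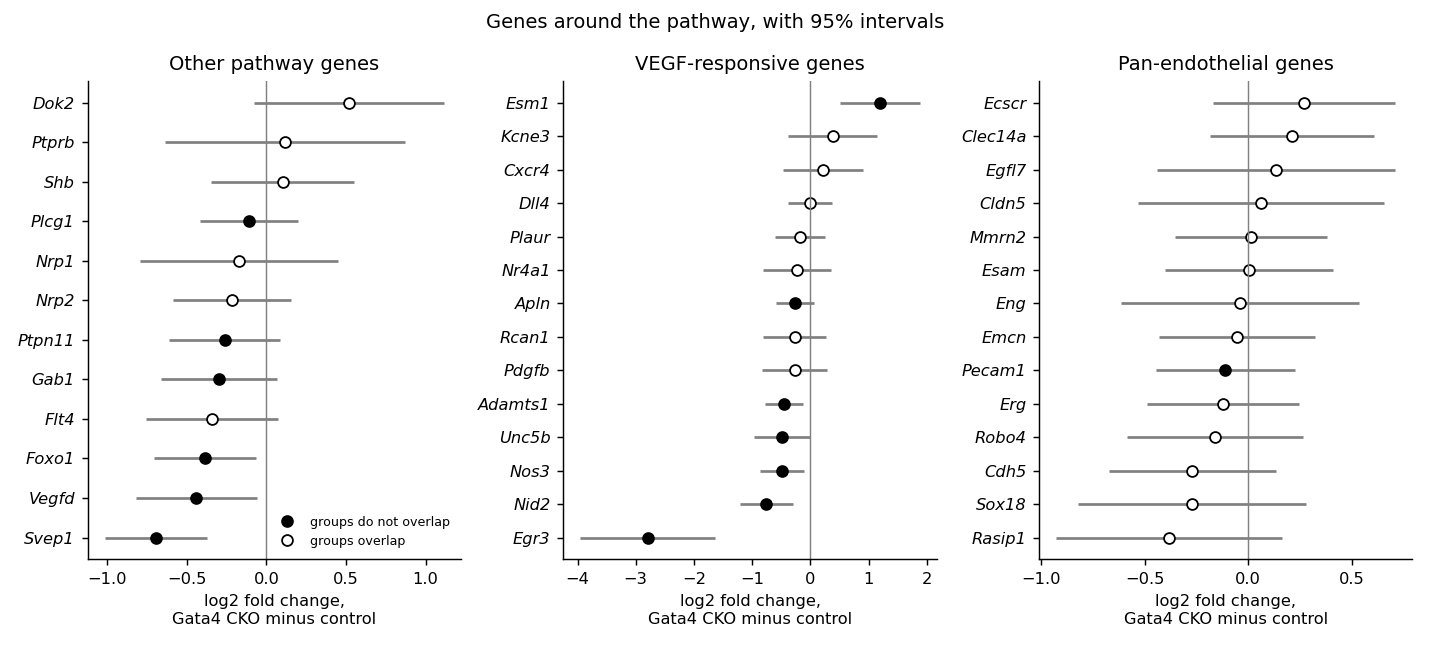
Log2 fold change, Gata4 CKO minus control (x axes), with 95% intervals for 12 other pathway genes, 14 VEGF-responsive genes and 14 pan-endothelial genes; filled points mark genes whose groups do not overlap. Filled points number 6, 7 and 1, and Esm1 at 1.19 is the filled point to the right of 0.

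Pan-endothelial genes had a median of -0.05, with 8 of 14 negative, and 1 with groups that did not overlap, Pecam1, an adhesion molecule of endothelium, at -0.11. Beside the general capillary and venous genes, the summed levels of 4 other marker lists did not overlap between the groups. That of 8 proliferation genes was 218 to 353 CPM in Gata4 CKO and 382 to 828 CPM in controls, with control 3 at 382 CPM. All 8 had negative log2 fold changes, and 4 had groups that did not overlap. That of 7 fibroblast genes was 2294 to 2354 CPM in Gata4 CKO and 2630 to 2715 CPM in controls. Of the 7 fibroblast genes, only 1, Col1a1, had groups that did not overlap, and Tcf21 went the other way at a log2 fold change of 0.34. The summed level of 7 macrophage genes was 209 to 234 CPM in Gata4 CKO and 148 to 178 CPM in controls. The 7 alveolar type 2 genes summed to 18486 to 25605 CPM in Gata4 CKO and 11003 to 18364 CPM in controls, so the sums barely separated. All 7 log2 fold changes were positive, with a median of 0.58, but only 2 genes had groups that did not overlap. Most of the gap lay in Sftpc, at a mean of 12533 CPM in Gata4 CKO and 7431 CPM in controls. Sums of arterial, lymphatic, smooth muscle, erythroid and cardiac genes overlapped. No marker of these lists was at 0, and their part in the values of the 10 genes was not tested.

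The genes most like Kdr, Flt1 and Vegfb, the 3 members with the smallest p, were sought among 11757 other genes of at least 5 CPM by Pearson's r of log2 CPM over the 6 libraries. For Kdr these were Camkk2, Ep400 and Hip1 (r of 0.999, 0.997 and 0.993). For Flt1 they were Mcm3ap, Ldlrad3 and Sh3glb1 (r of 0.995, 0.991 and 0.990). For Vegfb they were Rps7, Lamtor5 and Zfand2b (r of 0.998, 0.997 and 0.997), and 416 genes reached an r of 0.95 with Vegfb, against 112 with Kdr and 63 with Flt1. With 6 libraries such values are a description only.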

How the data were processed

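Total RNA from whole lungs was sequenced with a stranded mRNA kit, per the labels' protocols. The deposited table gives whole-number counts per Ensembl gene without scaling, per the file headers. Tools listed in the submitters' processing notes, without roles, are DESeq2 1.36.0, featureCounts 2.0.1 and STAR 2.7.10a, and the build is GRCm38. The annotation, strand setting and read filters are not stated there. Of 55335 genes, 23377 had no symbol in the table and 23239 of these were named by gene ID. Total counts were 15156415 to 30848948 per library, and their number limits precision for scarce genes.

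Groups came from the titles. Gata4 CKO was compared with control over all 6 libraries in edgeR 4.0.16 under R 4.3.3 (filterByExpr, smallest count 10 and smallest total 15; TMM; robust quasi-likelihood test), with Benjamini-Hochberg adjustment over 17075 genes and a threshold of 0.05. All 10 members passed the filter. The SE is the log2 fold change divided by the square root of F. P-values measure the spread between libraries, which the titles mark as biological replicates. Log2 CPM used a prior count of 2. GENCODE mouse release 21 (GRCm38) gave exon lengths and positions. Single values were tested by exact permutation. The steps were tested on simulated data. DESeq2 1.42.0 and limma 3.58.1 served as alternatives. The members and gene lists were chosen with earlier results of these data known. The text names all members and, per pathway list, the 3 genes with the smallest p. Genes added after their values were seen are Flt4, Nrp1, Nrp2, Ptprb, Dll4, Nos3, Adamts1, Pecam1, Cd93, Plvap, Gpihbp1, Nr2f2, Col1a1 and Tcf21. Postn, Rgs5, Notch3 and Sftpc were also added in that way.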

Additional observations from a re-analysis of the deposited data

How the results depend on the processing

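Replicate numbers did not pair the libraries: the deviations of same-numbered libraries from their group means correlated at 0.111, -0.301 and 0.119, and Gata4 CKO 1 and 2 correlated best with controls 2 and 3. With the replicate number as a block, edgeR called 0 genes, and Kdr and Flt1 had log2 fold changes of -0.52 and -0.46 (adjusted p = 0.697 for both).

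DESeq2 size factors, no filter on low counts, limma-voom, the block and a threshold of 0.10 left the count of called genes at 0, and no member changed sign or passed under the first 4. DESeq2 called 110 genes and none of the 10. With the label number as a term, 7308 genes passed; Vegfb stood at 1.12, Flt1 at -0.58, Kdr at -0.63 and Tek at -0.55, all past the threshold, and Pgf at 0.25, Tie1 at 0.22 and Angpt1 at -0.59 had the opposite sign to the fit over all libraries. With that term Gata4 CKO 1 is the only library labelled Gata4 CKO in the comparison, so passing the threshold there rests on no replicate of it. Settings chosen after the data were seen follow. With control 3 and Gata4 CKO 1 left out, 4389 genes passed; Flt1 stood at -0.33, Kdr at -0.50, Tie1 at -0.37 and Angpt1 at 0.88, past the threshold, and Vegfa at 0.11 and Tek at 0.34 turned sign. With limma-voom quality weights, which gave Gata4 CKO 1 a weight of 0.0884, 4375 genes passed; Flt1 stood at -0.32, Kdr at -0.45, Tie1 at -0.31 and Angpt1 at 0.69, past the threshold, and Vegfa at 0.083 and Tek at 0.27 turned sign. With the length and GC trend removed, 0 genes passed and Tek stood at 0.043. The cause of these differences was not tested.

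Leaving out 1 library in turn gave 0 to 115 called genes, the 115 without Gata4 CKO 1, and no member passed. Log2 fold changes ranged from -0.58 to -0.48 for Kdr, -0.52 to -0.38 for Flt1, 0.14 to 0.73 for Vegfb, -0.49 to -0.17 for Vegfc, -0.43 to -0.043 for Tie1 and 0.10 to 0.34 for Angpt2. They turned sign for Vegfa (-0.15 to 0.026), Pgf (-0.34 to 0.13), Tek (-0.20 to 0.22) and Angpt1 (-0.089 to 0.61). The differences in ratios and in levels relative to pan-endothelial genes also turned sign, for Angpt2 to Angpt1 (-0.29 to 0.35), Tek to Tie1 (-0.18 to 0.66) and the relative levels of Vegfa (-0.21 to 0.23), Pgf (-0.11 to 0.16), Tek (-0.30 to 0.43) and Angpt1 (-0.23 to 0.84); the other 7 kept their sign. A prior count of 0.5 or DESeq2 size factors, the second added for the relative levels after the data were seen, moved none of the 13 by more than 1 SD. Counts of 57 to 121 reads limit what can be said of Pgf.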
